A study of Arabidopsis thaliana with 24 samples.

Results

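The change in the transcript response of wild-type (WT) Arabidopsis thaliana seedlings to N-linolenoylethanolamine (NAE 18:3) between 1 h and 3 h of exposure is described here. For each locus the NAE effect at 3 h, as log2 of NAE 18:3 over solvent, was set against the effect at 1 h, and loci were sorted into early only, sustained, late and reversed responses. The contrast used the 12 WT libraries of the 24 in the series, in 4 of its 8 groups. All were whole 4-day-old seedlings of the Col-0 accession, grown in liquid medium with sucrose. WT seedlings were exposed to NAE 18:3 at 40 µM, or to its solvent DMSO at 0.2%, for either 3 h or 1 h, with 3 libraries in each of the 4 groups. The other 12 libraries, from agb1 mutant seedlings of the same background under the same 4 conditions, were used only for comparison, and their allele is not named in the labels. Of 32833 loci in the deposited count tables, 20893 passed the filter on low counts in WT and were tested.

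N-acylethanolamines are fatty acid amides that plants release from membrane phospholipids. Seedlings remove them by hydrolysis through fatty acid amide hydrolase (FAAH) or by oxidation through lipoxygenases, and a polyunsaturated form such as NAE 18:3 is a substrate of both routes. Exogenous polyunsaturated N-acylethanolamines are known to slow seedling growth and to bleach young cotyledons. The agb1 mutant lacks normal function of AGB1, the gene for the Gβ subunit of the membrane complex that relays signals from receptors. In seedlings exposed to a stress or an elicitor, genes for signalling proteins and transcription factors commonly respond within the first hour, and genes for enzymes and chaperones later.

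The 12 WT libraries held 18.0 to 44.2 M counts each. Replicate 2 of the DMSO group at 1 h stood apart. It had the lowest total, 2.92% of its counts from organelle loci (at most 0.14% in the other 11) and 5.29% from nuclear ribosomal RNA. Against its fellow replicates its counts gave a chi-square of 167 or more per degree of freedom, where that pair gave 23.2. At 93 of 105 tested organelle loci the fitted 1 h effect was under -2 on the log2 scale. A 1 h effect was called at 2 organelle loci and a difference at 16. No organelle locus is named below, but the counts include them. With organelle loci and ribosomal RNA left out, 9663 differences were called and 162 loci reversed, against 9568 and 143. Without replicate 2 of DMSO at 1 h, 1692 loci were called at 1 h and 8774 for the difference, against 2318 and 9568 with it. For 107 loci, 32 of which had a called difference, the DMSO level differed at least 8-fold between 3 h and 1 h in WT, and for 48 of the 107 it differed less than 2-fold in agb1. Of the 48, 36 were organelle or ribosomal RNA loci, none of which kept an 8-fold difference without the library that stood apart, and of the other 12 loci 10 kept it. SDH1-2 is one of the 10, with at most 7.07 CPM (TMM-scaled counts per M counts) in the 12 agb1 libraries, against 76.0 to 109.7 CPM in the 6 WT libraries at 3 h and 3.17 to 4.03 CPM in the 6 at 1 h. POK1 had at most 22.2 CPM in agb1, against 80.2 to 106.4 CPM in the 6 WT libraries at 3 h and 7.67 to 12.1 CPM in the 6 at 1 h. The labels do not say whether WT seedlings of 3 h and 1 h came from 1 seed stock or 1 batch, and such a difference cannot be told apart from time. In the per-library rank correlation of level with exon length across loci, values ran from -0.33 to -0.14 at 1 h and from 0.01 to 0.31 at 3 h. Each NAE effect compares libraries of the same time, but these values also differed between treatments within a time. At 1 h they were -0.33, -0.26 and -0.22 under DMSO and -0.285, -0.16 and -0.14 under NAE. At 3 h they were 0.24, 0.31 and 0.30 under DMSO and 0.15, 0.11 and 0.01 under NAE. Photosynthesis transcripts were abundant, root markers summed to 75.3 to 169 CPM, and pollen markers (3 of 3) and seed storage genes (10 of 10) were under 1 CPM in every WT library.

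The NAE effect in WT reached far more loci at 3 h than at 1 h. At 3 h 12895 of 20893 loci were called (61.7%), 6847 higher (32.8%) and 6048 lower (28.9%), and at 1 h 2318 (11.1%), 1697 higher (8.12%) and 621 lower (2.97%). A call here means an adjusted p (Benjamini-Hochberg) under 0.05 in edgeR's quasi-likelihood F test over all tested loci. The difference between the effects, 3 h minus 1 h, was called for 9568 loci (45.8%), of which 5175 were higher (24.8%) and 4393 lower (21.0%), and 4505 differed by at least 1 on the log2 scale. Its median standard error (SE) was 0.20. Nothing in the labels says that replicates were separate cultures, so the p-values measure the spread between these samples. In whole seedlings, fewer cells of a type and less RNA per cell cannot be told apart. The split of higher and lower calls depended on scaling. With totals of 7 reference genes in place of TMM scaling, 2362 were higher and 7930 lower. On the TMM scale these genes summed to 4819 to 5467 CPM under NAE at 3 h, against 3560 to 3988 CPM under DMSO. At 1 h they summed to 3820 to 3853 CPM under NAE, against 3754 to 4034 CPM under DMSO. Of the 7 the difference was higher for 2 and lower for 1, so this scaling lowers every difference relative to TMM. With library totals alone, 3090 were higher and 6926 lower, and with upper-quartile scaling 4109 and 5513. These scalings moved the median difference over all loci from 0.05 under TMM to -0.37, -0.24 and -0.08, and differences below are on the TMM scale.

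Of the 2318 loci called at 1 h, 80.9% were called at 3 h with the same sign, and these 1876 sustained loci were 14.5% of the loci called at 3 h. The sustained response strengthened at 985 higher and 233 lower loci, weakened at 36 and 6, and had no called difference at 413 and 203. Early only responses, called at 1 h and not at 3 h with a called difference, numbered 168 (107 higher and 61 lower at 1 h). Late responses numbered 7730 (3909 higher and 3821 lower at 3 h), 37.0% of all tested loci. At 143 loci the sign reversed: 93 were lower at 3 h and higher at 1 h, and 50 were higher at 3 h and lower at 1 h. A further 131 early and 3146 late calls came without a called difference, and 7432 loci had no call. The early only count was 102 without replicate 3 and 103 without replicate 2 of NAE at 1 h. The reversed count was 81 and 82 without the same libraries, and 93 and 89 without replicates 1 and 2 of DMSO at 1 h. The counts of 1 h calls and sustained loci were 1492 and 1249 without replicate 2 of NAE at 1 h. At the edge of the call lay ERL2, with a difference of -0.58 (SE 0.23) just inside, and GRL, with -0.28 (SE 0.11) just outside. A 1 h effect too small to be called does not show that there was none. When the 6 libraries of 1 h were fitted alone, 3577 loci were called, and 547 of the late loci (7.08%) were among them, 427 with the sign of their 3 h effect.

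**Figure D1:**
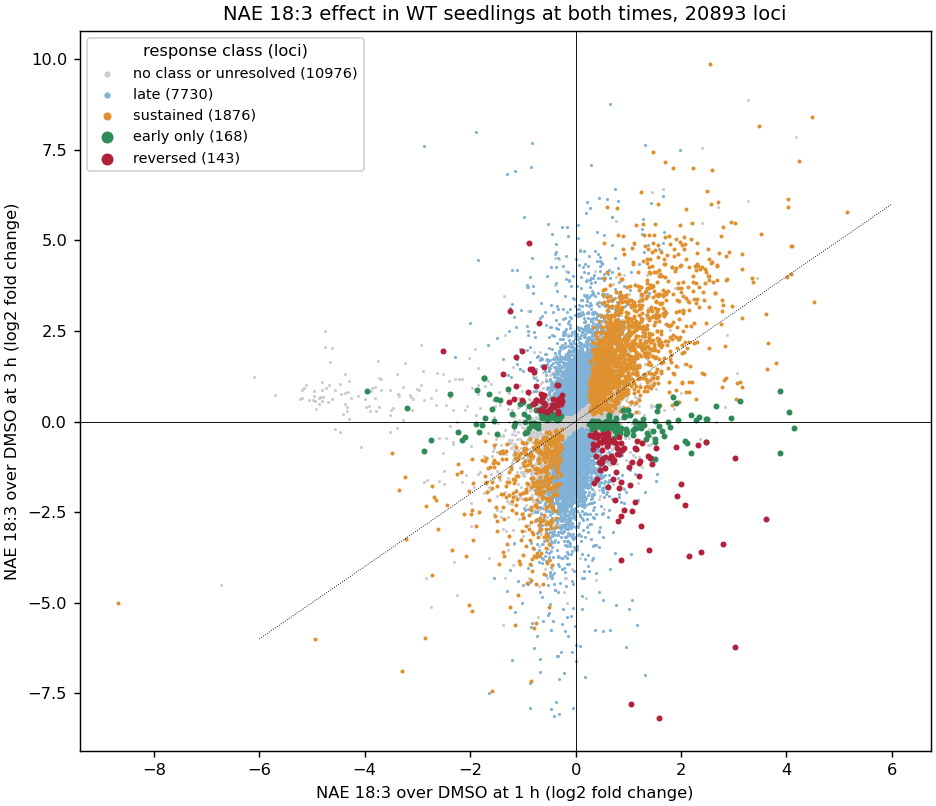
Each point is a locus of the 12 WT libraries, with its NAE effect at 3 h on the vertical axis and at 1 h on the horizontal axis (log2 of NAE over DMSO), coloured by response class. Late loci lie along the vertical axis, strengthened sustained loci above the diagonal in the upper right and below it in the lower left, and the 143 reversed loci in the upper left and lower right.

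The change of each group's own level between the times was set beside the classes. Of the 985 strengthened loci that were higher, 929 had a called rise under NAE between 1 h and 3 h, and under DMSO 437 rose and 222 fell. Of the 233 that were lower, 192 fell under NAE. Across all loci 34.3% rose and 34.2% fell under NAE (68.5% called), and 31.0% rose and 31.0% fell under DMSO (62.0% called). Of the 107 early only loci that were higher at 1 h, 65 rose and 5 fell under DMSO, and under NAE 23 rose and 54 fell. Of the 61 that were lower at 1 h, 39 fell under DMSO. Of the 36 weakened loci that were higher, 29 rose under DMSO and 13 under NAE. Among reversed loci both groups moved: of the 93 that were lower at 3 h, 80 fell under NAE and 59 rose under DMSO. These level changes share the libraries of the sorting and are given as a description.

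Early only rises included MYB41 (AT4G28110), a MYB transcription factor gene induced by osmotic stress. MYB41 had 9.43, 8.44 and 3.96 CPM in NAE libraries at 3 h, against 5.39, 4.86 and 7.96 CPM in DMSO libraries. At 1 h it had 12.6, 12.7 and 13.9 CPM under NAE, against 0.303, 1.29 and 0.978 CPM under DMSO. The groups stood far apart at 1 h and overlapped at 3 h, where the DMSO libraries were also above every DMSO library of 1 h. The effect was 0.26 at 3 h and 4.04 (SE 0.43) at 1 h, and the difference -3.79 (SE 0.56, edgeR adjusted p = 0.000129). PPCK1 (AT1G08650) encodes a kinase of phosphoenolpyruvate carboxylase. PPCK1 had 22.2, 15.1 and 23.4 CPM under NAE at 3 h, against 28.8, 28.9 and 34.5 CPM under DMSO, and 19.6, 32.7 and 49.5 CPM under NAE at 1 h, against 8.29, 8.09 and 7.12 CPM under DMSO. All 3 NAE libraries were higher at 1 h and all 3 were lower at 3 h, although the 3 h effect of -0.60 was not called, and the difference was -2.72 (SE 0.39). AT3G25240, of the DUF506 family, had the largest difference of the early only rises eligible to be named (at least 5 CPM, no overlap at 1 h), -4.32 (SE 0.70). It is among the loci whose WT DMSO level differed at least 8-fold between the times. Its DMSO level in agb1 averaged 1.53 CPM at 3 h and 0.750 CPM at 1 h, against 7.04, 6.25 and 14.9 CPM at 3 h and 0.969, 0.515 and 0.255 CPM at 1 h in WT libraries.

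Early only falls were seen at AT2G28780, annotated as an efflux pump subunit, and at CYP702A5 (AT4G15393), a cytochrome P450 gene. AT2G28780 had 6.05, 2.22 and 5.04 CPM under NAE at 3 h, against 2.94, 2.53 and 2.53 CPM under DMSO, and 1.63, 3.07 and 2.81 CPM under NAE at 1 h, against 10.7, 14.3 and 14.5 CPM under DMSO. At 1 h the NAE libraries were all far below the DMSO libraries, and at 3 h the DMSO libraries had come down to the same range and the groups overlapped. The 3 h effect of AT2G28780 was 0.75, just outside the call (edgeR adjusted p = 0.0507), and a call would have made the locus reversed. CYP702A5 had 5.89, 5.96 and 3.35 CPM under NAE at 3 h, against 10.6, 8.65 and 2.37 CPM under DMSO, and 1.46, 1.86 and 1.96 CPM under NAE at 1 h, against 9.34, 14.7 and 11.6 CPM under DMSO. Its DMSO libraries at 3 h spread widely and spanned the NAE libraries. The third member named by the same rule, AT3G01260 of the galactose mutarotase-like family, had a difference of 1.93 (SE 0.31).

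Among the loci that rose at both times and more at 3 h was ABCG40 (AT1G15520), which encodes a plasma membrane transporter known for abscisic acid import and for export of toxic compounds. ABCG40 had 6452, 6076 and 4474 CPM under NAE at 3 h, against 16.1, 16.8 and 26.6 CPM under DMSO, and 123, 111 and 64.7 CPM under NAE at 1 h, against 8.66, 8.14 and 9.72 CPM under DMSO. Its effect was 8.16 at 3 h and 3.49 at 1 h, with no overlap at either time. The small heat shock protein gene AT2G29500 had 1326, 1395 and 1711 CPM under NAE at 3 h, against 24.9, 22.4 and 25.5 CPM under DMSO. At 1 h it had 62.4, 59.1 and 44.2 CPM under NAE, against 39.4, 33.4 and 36.2 CPM under DMSO. A rise of 0.60 at 1 h was thus followed by 5.93 at 3 h, a difference of 5.32 (SE 0.20, edgeR adjusted p = 1.41e-09). AT4G37710 encodes a VQ motif protein, a family of small proteins that bind WRKY factors. AT4G37710 had 21.8, 25.0 and 22.1 CPM under NAE at 3 h, against 0.151, 0.0790 and 0.245 CPM under DMSO, and 2.11, 1.83 and 3.01 CPM under NAE at 1 h, against 0.565, 0.825 and 0.808 CPM under DMSO. It was nearly silent under DMSO at 3 h, and its difference was 5.46 (SE 0.41). Of the strengthened rises with at least 5 CPM and no overlap at either time, the largest difference, 5.98 (SE 0.65), was that of the coiled-coil protein gene AT3G43250.

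Among the loci that fell at both times and more at 3 h were 4CL3 (AT1G65060), a 4-coumarate:CoA ligase gene of flavonoid synthesis, and CRK30 (AT4G11460), a cysteine-rich receptor-like kinase gene. 4CL3 had 3.84, 2.98 and 3.30 CPM under NAE at 3 h, against 126, 126 and 103 CPM under DMSO, and 66.6, 82.4 and 81.8 CPM under NAE at 1 h, against 112, 109 and 106 CPM under DMSO. CRK30 had 0.922, 1.08 and 0.754 CPM under NAE at 3 h, against 48.3, 51.9 and 28.2 CPM under DMSO, and 16.1, 16.9 and 20.7 CPM under NAE at 1 h, against 30.6, 28.5 and 30.7 CPM under DMSO. In both the groups were apart at each time and the level under NAE at 3 h was far below every other library. The differences were -4.62 (SE 0.17) for 4CL3 and -4.81 (SE 0.32) for CRK30. The SAUR-like auxin response gene AT4G38840 was nearly absent under NAE at 3 h, with 3 counts in the NAE libraries together, against 227 in the DMSO libraries. That is a ratio of 0.0179 (exact 95% interval 0.00366 to 0.0529, counting error only).

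Sustained rises without a called difference included AT5G56960, a basic helix-loop-helix transcription factor gene. It had 20.6, 25.6 and 20.9 CPM under NAE at 3 h, against 1.70, 1.5 and 0.735 CPM under DMSO, and 6.71, 7.35 and 6.53 CPM under NAE at 1 h, against 0.545, 0.155 and 0.383 CPM under DMSO. Both the NAE and the DMSO libraries were higher at 3 h, and the effect was 4.08 at 3 h and 4.08 at 1 h. NHL10 (AT2G35980), a marker gene of pattern-triggered immunity, did likewise, with 162, 195 and 158 CPM under NAE at 3 h, against 21.4, 25.2 and 9.88 CPM under DMSO. At 1 h NHL10 had 20.0, 17.4 and 17.7 CPM under NAE, against 1.82, 2.01 and 3.08 CPM under DMSO. Its effects of 3.19 and 2.97 differed by 0.22 (SE 0.42, 95% interval -0.75 to 1.18). The alpha/beta-hydrolase gene AT1G68620 had effects of 3.85 at 3 h and 3.36 at 1 h, and without replicate 3 of DMSO at 3 h its difference was called at 0.79. The sustained falls named by the same rule were those of the oxygenase gene AT3G61400 (-3.25 at 3 h, -3.22 at 1 h), the flavonoid glucosyltransferase gene UF3GT (-2.55 and -1.98) and the receptor kinase gene AT1G05700 (-1.71 and -1.95).

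Weakened rises included SRG3 (AT3G02040), which encodes a glycerophosphodiester phosphodiesterase. SRG3 had 238, 235 and 201 CPM under NAE at 3 h, against 116, 129.5 and 195 CPM under DMSO, and 169.9, 245 and 242 CPM under NAE at 1 h, against 27.6, 30.2 and 21.7 CPM under DMSO. The NAE libraries held a similar level at both times and the DMSO libraries were several times higher at 3 h. The effect was 0.61 at 3 h and 3.05 at 1 h. Exons of SRG3 share 46.6% of their 75-base words with other loci, counting either strand. SRG3 overlaps a gene on the opposite strand, and bases of such an overlap can count as shared. BT5 (AT4G37610), of the BTB and TAZ domain family, had 65.3, 63.0 and 64.2 CPM under NAE at 3 h, against 35.3, 36.6 and 54.2 CPM under DMSO, and 43.2, 48.6 and 38.4 CPM under NAE at 1 h, against 9.12, 10.1 and 7.63 CPM under DMSO. Between 1 h and 3 h BT5 rose under both treatments, relatively more under DMSO, and its difference was -1.68 (SE 0.22). AT2G20670, of the DUF506 family, had effects of 1.05 at 3 h and 3.07 at 1 h, and its DMSO level in WT was also at least 8-fold higher at 3 h than at 1 h, as was that of the reversed locus AT1G75960. In the lower direction the F-box gene AT2G36090 had effects of -1.53 at 3 h and -3.23 at 1 h. The ammonium transporter gene AMT1;2 (AT1G64780) had -1.07 and -1.78, a difference that lost its call with library totals (0.40, adjusted p = 0.146) and with reference-gene totals (0.27, adjusted p = 0.336). The TRAF-like gene AT5G26290 had -0.54 and -1.73, and its difference lost its call with reference-gene totals (0.78, adjusted p = 0.0628).

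**Figure D2:**
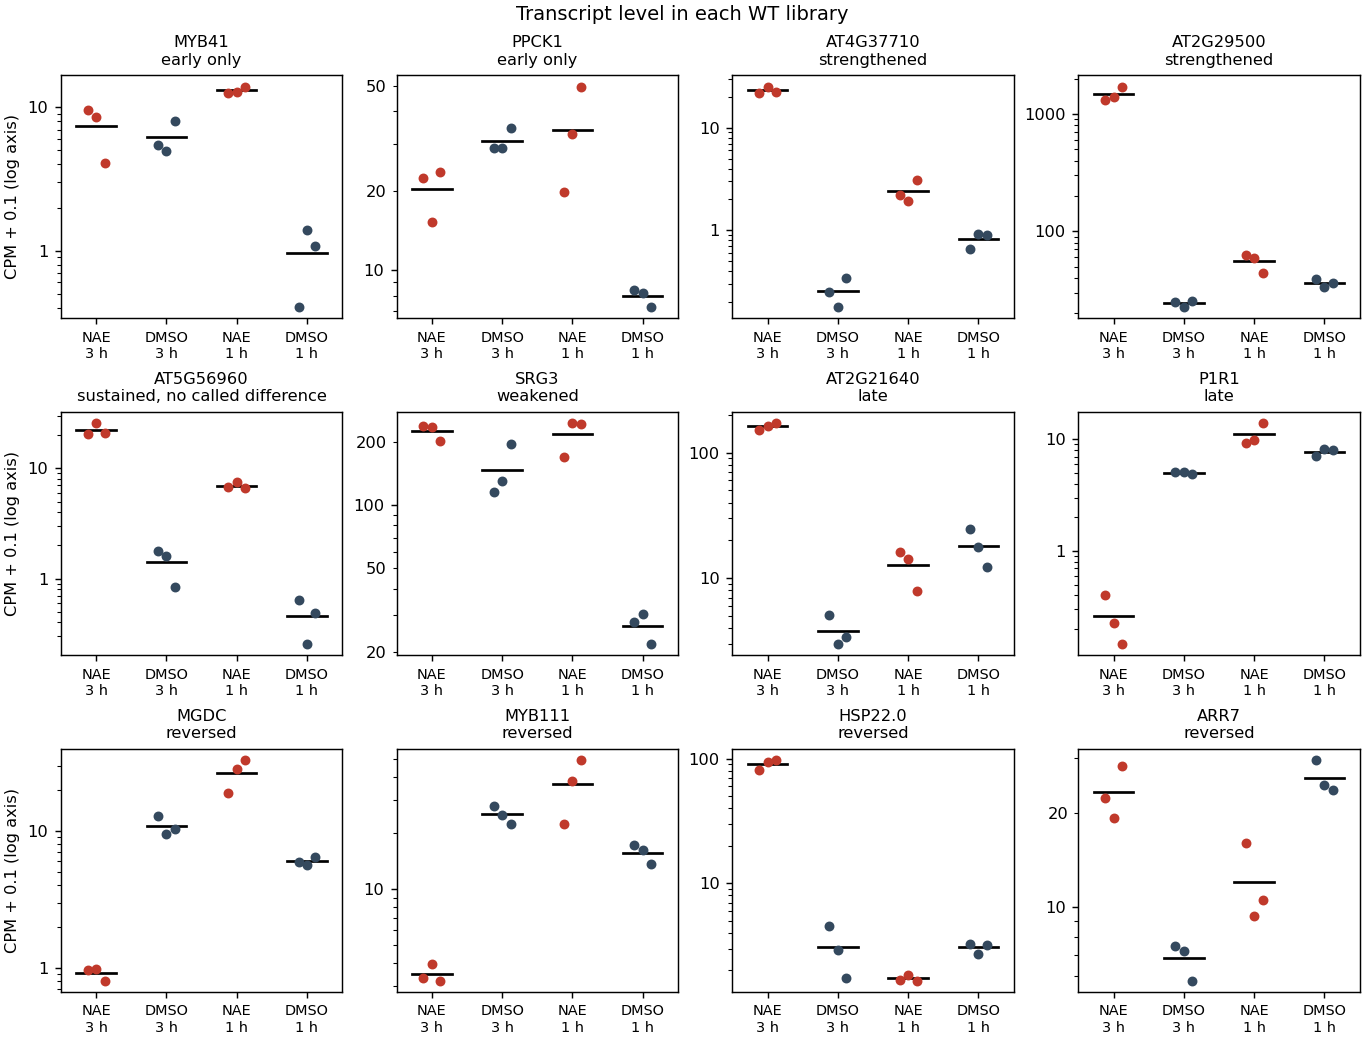
CPM + 0.1 on a log axis for 12 loci in each WT library under NAE (red) and DMSO (dark) at 3 h and at 1 h, with points for libraries and horizontal bars for group means. MYB41 is apart at 1 h and overlaps at 3 h, AT2G29500 is apart at both, and the 4 reversed loci of the bottom row change the order of NAE and DMSO between the times.

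Promoters of 4 of these loci are shown because the W-box, the DNA element that WRKY factors bind (searched as TTGACC and TTGACT on both strands), was in a larger share of the early only and sustained rises than of all tested loci. The 250 bases before the annotated start are taken from RefSeq's TAIR10.1 assembly, 5′ to 3′ on the gene's strand, with W-boxes in capitals. AT4G37710, OXI1 and AT5G56960 hold 3 each and MYB41 holds 1, and loci without a W-box are not shown. OXI1 (AT3G25250), an oxidative-burst-inducible kinase gene, had 343, 340.2 and 319 CPM under NAE at 3 h, against 24.1, 17.4 and 17.9 CPM under DMSO, and 53.0, 54.0 and 50.4 CPM under NAE at 1 h, against 16.6, 18.4 and 16.7 CPM under DMSO.
AT4G37710, chr4:17717868-17718117, plus strand: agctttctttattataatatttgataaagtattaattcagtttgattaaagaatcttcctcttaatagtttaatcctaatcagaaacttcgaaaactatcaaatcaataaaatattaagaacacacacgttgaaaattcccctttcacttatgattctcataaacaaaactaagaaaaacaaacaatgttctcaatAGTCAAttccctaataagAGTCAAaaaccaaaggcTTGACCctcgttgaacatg
OXI1, chr3:9195084-9195333, plus strand: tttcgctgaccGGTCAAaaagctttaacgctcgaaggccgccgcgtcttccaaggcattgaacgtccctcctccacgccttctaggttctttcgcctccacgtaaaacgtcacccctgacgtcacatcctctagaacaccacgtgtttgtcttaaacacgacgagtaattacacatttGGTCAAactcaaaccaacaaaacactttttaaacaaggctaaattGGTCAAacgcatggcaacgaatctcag
AT5G56960, chr5:23041618-23041867, minus strand: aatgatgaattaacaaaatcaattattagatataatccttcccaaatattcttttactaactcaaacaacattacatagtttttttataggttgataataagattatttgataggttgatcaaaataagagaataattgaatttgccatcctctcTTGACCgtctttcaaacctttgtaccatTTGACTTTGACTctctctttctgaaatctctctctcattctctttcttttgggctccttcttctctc
MYB41, chr4:13969526-13969775, minus strand: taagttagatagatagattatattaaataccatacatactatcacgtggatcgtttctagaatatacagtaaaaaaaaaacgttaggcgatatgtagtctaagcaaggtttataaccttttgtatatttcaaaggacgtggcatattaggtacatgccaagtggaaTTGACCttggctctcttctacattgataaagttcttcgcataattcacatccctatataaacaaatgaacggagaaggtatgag

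A W-box was present in the 250 bases of 45.8% of early only loci that were higher at 1 h (exact 95% interval 36.1 to 55.7, n = 107). The share was 42.0% of strengthened rises (38.9 to 45.2, n = 985), 37.0% of rises without a called difference (32.4 to 41.9, n = 413) and 31.4% of late rises (29.9 to 32.9, n = 3908). It was 28.5% of all 20787 tested loci with a promoter and 27.4% of all 38092 promoters. In the other direction it was 30.0% of early only falls (18.8 to 43.2, n = 60), 32.5% of sustained falls without a called difference (26.1 to 39.4, n = 203), 22.7% of strengthened falls (17.5 to 28.7, n = 233) and 24.4% of late falls (23.0 to 25.8, n = 3821). Intervals cover sampling of loci only, and a match is a description of the letters and not a bound site. The rapid stress response element CGCGTT was in 5.99% of strengthened rises (4.59 to 7.66) and 2.82% of tested loci, and the heat shock element pair GAANNTTC in 16.0% (13.8 to 18.5) and 9.47%. The telo-box AAACCCT and the site II element TGGGCC, known from promoters of translation and cell growth genes, were in 2.13% and 8.73% of strengthened rises, against 6.35% and 16.0% of tested loci. Late rises held the site II element in 18.2% (17.0 to 19.5). None of these shares was particular to strengthened rises. Rises without a called difference held CGCGTT in 5.08%, GAANNTTC in 16.5%, the telo-box in 4.36% and the site II element in 6.3%. The site II share was also low in early only rises (7.48%), strengthened falls (5.58%) and sustained falls without a called difference (4.93%). All shares count either strand.

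**Figure D3:**
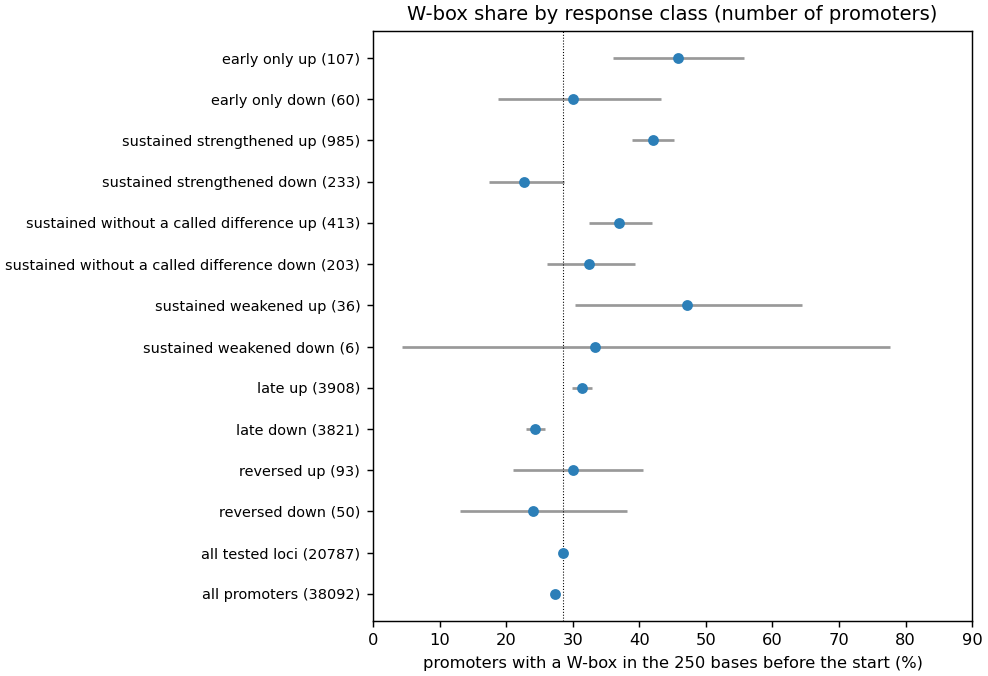
Share of promoters (percent of loci, 250 bases before the start) with a W-box on either strand, by response class, with exact 95% intervals, with the 28.5% of all tested loci as a dotted line. Up and down give the sign at 1 h, or at 3 h for late loci. Early only rises, strengthened rises and rises without a called difference lie at 45.8%, 42.0% and 37.0%. Weakened rises lie at 47.2%, and strengthened and late falls at 22.7% and 24.4%.

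HSFA2 (AT2G26150), a heat shock transcription factor gene, is shown for the heat shock element pair, which its promoter holds at 88 and 33 bases before the start (capitals).
HSFA2, chr2:11135374-11135623, plus strand: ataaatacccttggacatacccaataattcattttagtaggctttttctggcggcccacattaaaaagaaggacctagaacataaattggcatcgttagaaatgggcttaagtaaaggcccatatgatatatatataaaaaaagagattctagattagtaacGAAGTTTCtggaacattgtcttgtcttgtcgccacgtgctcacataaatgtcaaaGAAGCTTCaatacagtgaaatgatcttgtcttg
HSFA2 had 190.1, 182 and 196 CPM under NAE at 3 h, against 11.9, 9.05 and 11.5 CPM under DMSO, and 12.1, 17.8 and 13.3 CPM under NAE at 1 h, against 6.78, 6.80 and 5.49 CPM under DMSO. It was higher under NAE in every library of both times, with effects of 4.13 at 3 h and 1.19 at 1 h.

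Late rises named by the rule were those of AT2G23110, a late embryogenesis abundant protein gene, AT2G21640, annotated as a marker of oxidative stress, and HSP23.6 (AT4G25200), which encodes a mitochondrial small heat shock protein. AT2G21640 had 151, 164 and 171 CPM under NAE at 3 h, against 4.97, 2.88 and 3.27 CPM under DMSO, and 16.0, 14.2 and 7.78 CPM under NAE at 1 h, against 24.6, 17.6 and 12.1 CPM under DMSO. The groups overlapped at 1 h and were far apart at 3 h, as the level was higher at 3 h than at 1 h under NAE and lower under DMSO, and the difference was 5.96 (SE 0.45, edgeR adjusted p = 1.61e-06). HSP23.6 had 311, 329.5 and 373 CPM under NAE at 3 h, against 6.63, 4.19 and 3.14 CPM under DMSO, and 10.0, 11 and 7.32 CPM under NAE at 1 h, against 8.49, 6.44 and 5.79 CPM under DMSO. Its difference was 5.73 (SE 0.33), and that of AT2G23110 6.30 (SE 0.71).

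Late falls named by the rule were those of P1R1 (AT5G57780), annotated as a transcription factor gene, TBL26 (AT4G01080), of a family of polysaccharide acetyltransferases, and AT2G10940, a lipid-transfer protein family gene. AT2G10940 had 63.5, 75.3 and 50.5 CPM under NAE at 3 h, against 1365, 1852 and 1514 CPM under DMSO, and 489.7, 563 and 862 CPM under NAE at 1 h, against 839, 764 and 904 CPM under DMSO. The groups overlapped at 1 h, and at 3 h every NAE library was far below every DMSO library. The differences were -4.26 (SE 0.29) for AT2G10940, -5.43 (SE 0.41) for P1R1 and -4.37 (SE 0.65) for TBL26. P1R1 rested on 9 counts in the NAE libraries at 3 h, against 377 in the DMSO libraries. Over the whole class the median effect was 0.88 at 3 h and 0.02 at 1 h for late rises and -1.03 and -0.03 for late falls.

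Among the reversed loci that were lower at 3 h was MGDC (AT2G11810), a gene for a synthase of monogalactosyldiacylglycerol, a plastid membrane lipid, known for its induction in phosphate starvation. MGDC had 0.871, 0.888 and 0.707 CPM under NAE at 3 h, against 12.8, 9.41 and 10.2 CPM under DMSO, and 18.8, 28.2 and 32.9 CPM under NAE at 1 h, against 5.87, 5.57 and 6.40 CPM under DMSO. The NAE libraries were the highest of all at 1 h and the lowest of all at 3 h, with a difference of -5.88 (SE 0.31, edgeR adjusted p = 1.61e-08). MYB111 (AT5G49330), a MYB factor that activates flavonol synthesis genes, had 3.23, 3.87 and 3.11 CPM under NAE at 3 h, against 27.9, 25.1 and 22.4 CPM under DMSO. At 1 h MYB111 had 22.4, 38.1 and 49.5 CPM under NAE, against 17.1, 16.0 and 13.5 CPM under DMSO. Its effect was -2.89 at 3 h and 1.24 at 1 h, with no overlap at either time. The uncharacterized locus AT5G20790 had 3.79, 5.45 and 5.75 CPM under NAE at 3 h, against 52.4, 48.2 and 54.8 CPM under DMSO, and 56.9, 82.0 and 116 CPM under NAE at 1 h, against 15.8, 10.7 and 10.1 CPM under DMSO. The pectin lyase-like gene AT1G60590 and the AMP-dependent ligase gene AT1G75960 had differences of -8.84 (SE 0.63) and -4.67 (SE 0.27). AT1G60590 rested on 8 counts under NAE at 3 h, against 2453 under DMSO.

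In the other direction of reversal, ARR7 (AT1G19050), a response regulator gene that is a primary target of cytokinin, had 22.2, 19.1 and 28.2 CPM under NAE at 3 h, against 7.35, 7.11 and 5.67 CPM under DMSO. At 1 h ARR7 had 15.9, 9.24 and 10.4 CPM under NAE, against 29.5, 24.5 and 23.6 CPM under DMSO. Its effect was 1.79 at 3 h and -1.13 at 1 h, and the groups did not overlap at either time. The small heat shock protein gene HSP22.0 (AT4G10250) had 80.7, 93.3 and 97.2 CPM under NAE at 3 h, against 4.45, 2.81 and 1.63 CPM under DMSO, and 1.57, 1.75 and 1.56 CPM under NAE at 1 h, against 3.17, 2.63 and 3.10 CPM under DMSO. Its 1 h levels were low, and its 1 h effect was -0.89 (edgeR adjusted p = 0.0354). APX2 (AT3G09640), a cytosolic ascorbate peroxidase gene, had effects of 3.06 at 3 h and -1.25 at 1 h. The glutathione transferase gene GSTU25 (AT1G17180) had 1.93 and -1.02, and AT1G29195 had 1.45 and -0.86.

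Gene lists by function, described by counts beside the background of 24.8% higher and 21.0% lower and the median difference of 0.05 over all loci, are given next. List members were chosen with earlier results of these data known. Their counts describe those members and not whole gene families. Among regulators of defence, 19 of 22 tested WRKY factor genes had a larger effect at 3 h and none a smaller one (median difference 1.51), 14 of them strengthened and 5 late. WRKY22 (AT4G01250) had effects of 4.89 at 3 h and 1.79 at 1 h, and WRKY25 (AT2G30250) 3.46 and 0.91. Of 21 ERF and DREB factor genes 16 were higher (median 1.52), among them CEJ1 (2.44, SE 0.16) and ABR1 (2.73, SE 0.23). Of 11 ZAT and AZF zinc finger genes 6 were higher and 1 lower, including AT3G46080 (3.03) and the redox-responsive ZAT12 (1.62). ZAT12 already had an effect of 2.68 at 1 h. Of 17 calcium and touch genes 13 were higher, including the calmodulin-like genes CML38 (2.80) and CML39 (5.15). CML39 had 385, 378 and 443 CPM under NAE at 3 h, against 4.78, 1.5 and 3.10 CPM under DMSO, and 16.1, 15.5 and 15.4 CPM under NAE at 1 h, against 4.52, 3.30 and 4.93 CPM under DMSO. Of 34 pattern-triggered defence genes 24 were higher and none lower (median 0.75). Of these genes 26 had risen at 1 h and 32 at 3 h, including OXI1 (2.47) and the immune kinase gene BIK1 (1.53). Scaling moved the counts of the last 2 lists. With library totals and with reference-gene totals, 9 and 8 calcium and touch genes were higher and 1 and 1 lower, and 18 and 14 pattern-triggered defence genes were higher and 1 and 2 lower.

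Genes of stress metabolism responded mostly late or with a larger late effect. All 32 tested genes of the heat shock protein and co-chaperone list were higher, with a median difference of 3.99 and median effects of 4.23 at 3 h and 0.63 at 1 h. Of these 19 strengthened, 11 were late and 2 (HSP22.0 and APX2) reversed. The list includes APX2, although it is an ascorbate peroxidase gene. The small heat shock protein gene AT5G51440 had a difference of 4.22 (SE 0.15). Of 18 heat shock factor genes 11 were higher (median 0.60), including HSFA2 (2.94) and HSFA4A (2.27). All 7 genes of mitochondrial retrograde signalling were higher (median 3.24), 6 of them late, including OM66 (2.76), which encodes an outer mitochondrial membrane AAA protein, and NDB2 (2.20), an alternative NAD(P)H dehydrogenase gene. All 14 xenobiotic detoxification genes were higher (median 2.31), 7 strengthened and 7 late, among them ABCG40 (4.67) and the glycosyltransferase gene UGT73B4 (2.29). Of 24 glutathione transferase genes 19 were higher and 1 lower (median 1.92), with GSTU11 (3.96) and GSTU24 (3.14) late. Of 11 antioxidant enzyme genes 6 were higher and 2 lower (median 0.60), with DHAR2 (2.15) and GPX6 (1.67) late. With library totals and with reference-gene totals, 7 and 7 heat shock factor genes were higher and 1 and 1 lower, and 3 and 2 antioxidant enzyme genes were higher and 2 and 2 lower.

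Of 35 genes of the 26S proteasome none was called at 1 h, and 16 had a higher difference and 1 a lower one. With library totals 8 were higher and 3 lower, and with reference-gene totals 4 and 6, and the median difference of 0.27 turned to -0.03 and -0.15. The proteasome ATPase gene AT5G20000 had 1.29 (SE 0.15) and RPN6 0.84 (SE 0.12). Of 25 autophagy genes 16 were higher and none lower (median 0.62), but 8 were higher with library totals (median 0.32) and 6 with reference-gene totals (median 0.19). Among the 16 were ATG18A (1.16) and ATG8A (1.13). In the unfolded protein response 5 of 20 were higher and 5 lower (median -0.07), with 8 lower under library totals and 11 under reference-gene totals. The stress factor gene BZIP60 (2.10) and the co-chaperone gene ERDJ3A (2.54) were among the higher ones.

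Hormone genes moved both ways. In jasmonate synthesis and breakdown 11 of 20 genes were higher and 1 lower (median 1.21), including AOC1 (2.27), for allene oxide cyclase, and the late gene OPR3 (1.73), for oxophytodienoate reductase. In jasmonate signalling 10 of 14 were higher and none lower (median 0.85), with the repressor genes JAZ10 (1.72) and JAZ6 (1.17). JAZ3, which was not picked by the naming rule, was the only reversed member of that list, with 0.47 at 3 h and -0.58 at 1 h. Of 9 abscisic acid synthesis and breakdown genes 6 were higher and 2 lower, the catabolic genes CYP707A1 (1.81) and CYP707A3 (1.65) among the higher ones. Abscisic acid signalling had 8 of 21 higher and 4 lower (median 0.42), but 5 higher and 6 lower with reference-gene totals (median -0.01), with the phosphatase gene ABI2 at 2.82 and the dehydration response gene RD22 at -1.97. Of 22 auxin response genes 9 were higher and 5 lower (median 0.62), a balance that turned to 5 higher and 7 lower with library totals (median 0.32) and 5 and 8 with reference-gene totals (median 0.19). Among the higher ones were GH3.3 (3.85), which conjugates auxin to amino acids, and IAA2 (1.54). Of 15 ethylene genes 10 were higher and 1 lower (median 0.78), including the synthase gene ACS7 (2.48) and the receptor gene ETR2 (2.03). Of 14 brassinosteroid genes 2 were higher and 8 lower (median -0.65), with the transcription factor gene BEE2 (-2.67) and the biosynthesis gene CPD (-1.11). With reference-gene totals 5 jasmonate synthesis and breakdown genes were lower, 5 jasmonate signalling genes were higher, and 6 ethylene genes were higher and 2 lower.

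**Figure D4:**
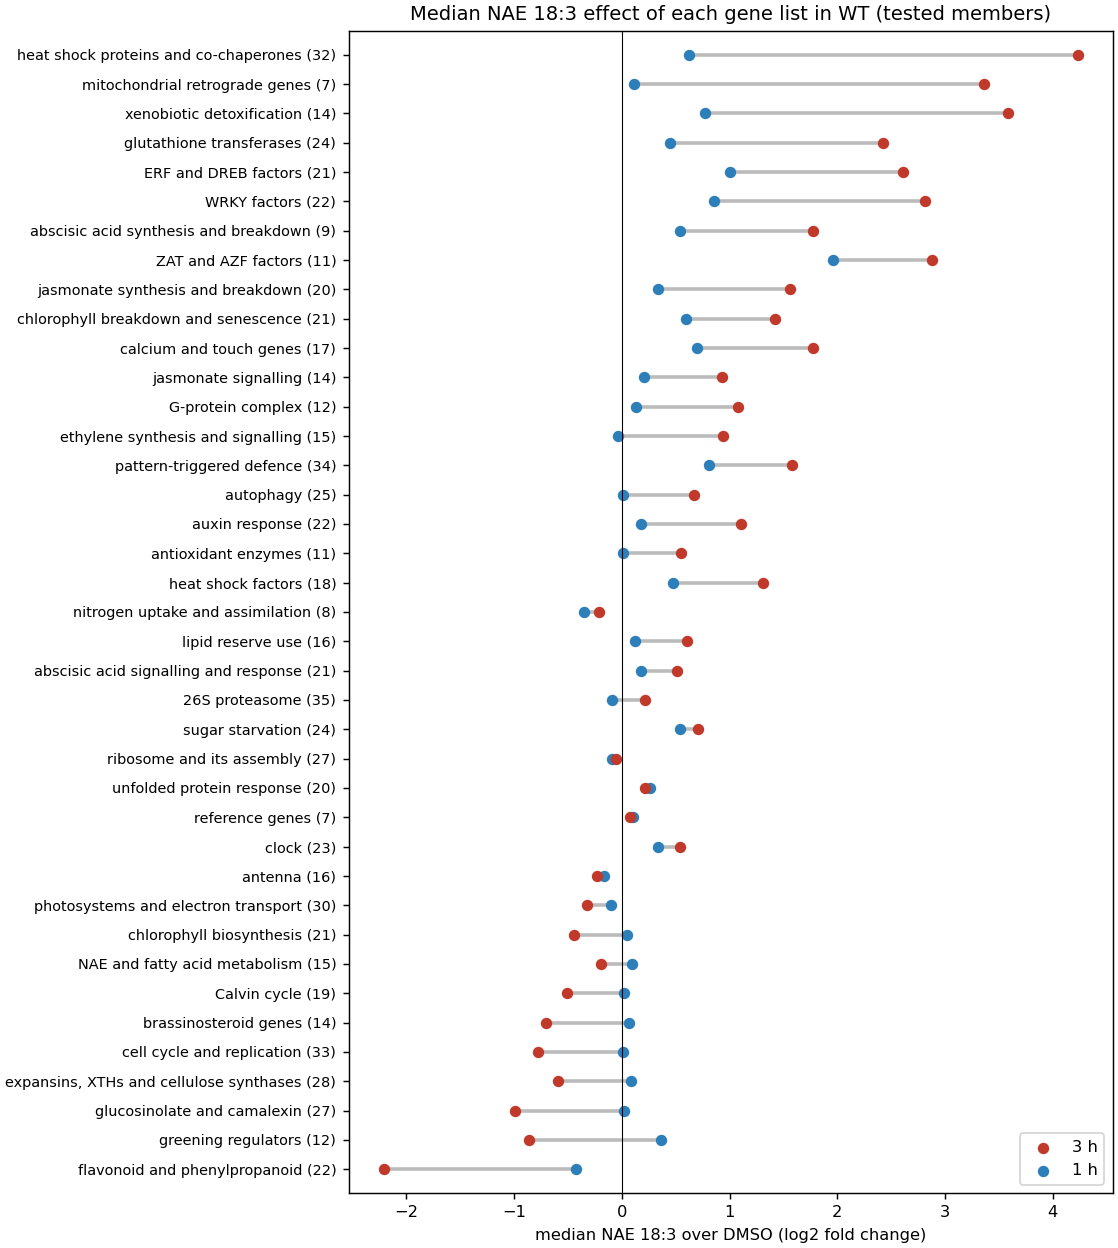
Median NAE effect (log2 of NAE over DMSO) of each gene list at 3 h and at 1 h in WT, with the number of tested members. The heat shock list stands at 4.23 at 3 h and 0.63 at 1 h, and the greening regulators at -0.86 and 0.36.

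No gene of the antenna, photosystem, Calvin cycle and chlorophyll synthesis lists was called at 1 h, and most changes there were late falls. Of 19 Calvin cycle genes 13 were lower and none higher (median -0.54), including FBA1 (-1.81), for fructose-bisphosphate aldolase, and PRK (-1.38), for phosphoribulokinase. Of 21 chlorophyll biosynthesis genes 12 were lower (median -0.40), including PORC (-1.26) and CHLI2 (-0.83). Of 30 photosystem and electron transport genes 10 were lower and 1 higher (median -0.23), including the ATP synthase genes ATPD (-0.80) and ATPC1 (-0.69). Of 16 antenna genes 5 were lower (median -0.19), beside a background of 21.0%. With library totals and with reference-gene totals, 16 and 22 photosystem and electron transport genes and 7 and 9 antenna genes were lower. LHCB2.1 (-1.87) and LHCB2.3 (-2.40) share 16.2% and 39.6% of their 75-base words with other loci.

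Of 12 genes that regulate greening 5 rose at 1 h, none fell, and the difference was lower for 9 and higher for 1 (median -1.10). GLK2 (AT5G44190), a transcription factor gene that promotes chloroplast development, had 14.1, 17.1 and 15.2 CPM under NAE at 3 h, against 51.3, 51.1 and 58.8 CPM under DMSO, and 82.2, 96.6 and 116 CPM under NAE at 1 h, against 72.2, 65.2 and 55.7 CPM under DMSO. GLK2 reversed without overlap at either time, with effects of -1.80 at 3 h and 0.61 at 1 h, and its paralog GLK1 was late with a difference of -1.92 (SE 0.17). Of members named after their values were seen, the GATA factor gene GNC also reversed, with -1.51 at 3 h and 1.20 at 1 h, and CGA1 (-0.54 and 2.07) and the light signalling factor gene HY5 (-0.29 and 0.83) were early only. Of 21 chlorophyll breakdown and senescence genes 16 were higher and none lower (median 0.95), with 12 higher under library totals and 10 under reference-gene totals, including the late gene SAG21 (2.77) and the NAC factor gene ATAF2 (1.71).

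Of 33 cell cycle and replication genes none was called at 1 h, and the difference was lower for 20 and higher for 3 (median -0.74). KRP2, which encodes an inhibitor of cyclin-dependent kinases, had -1.97 (SE 0.18), and MCM3, of the replication helicase, -1.53 (SE 0.17). Of 28 expansin, XTH and cellulose synthase genes 15 were lower and 4 higher (median -0.84), the expansin gene EXPA6 with -2.23 and the wall-modifying XTH23 with 1.86. Of 27 ribosome and assembly genes 1 was lower (8 with library totals and 10 with reference-gene totals), with a median of 0.08 that was negative under upper-quartile, total and reference-gene scaling and with the exon-length trend removed. All 5 stomatal lineage markers were lower in the difference (median -1.37), including SPCH (-0.95) and TMM (-1.23). Their summed level was 21.4 to 25.98 CPM under NAE at 3 h, against 66.7 to 71.3 CPM under DMSO. At 1 h it was 35.1 to 38.3 CPM under NAE, against 47.4 to 52.0 CPM under DMSO. The markers of the root (9 measured) summed to 120.4 to 169 CPM under NAE at 3 h, against 135.5 to 150.7 CPM under DMSO, and to 86.8 to 99.2 CPM under NAE at 1 h, against 75.3 to 87.0 CPM under DMSO. The 2 root markers with a called difference, named after their values were seen, moved in opposite directions. WOX5, a regulator gene of the root stem cell niche, had 31.6, 24.3 and 44.3 CPM under NAE at 3 h, against 1.77, 2.06 and 1.06 CPM under DMSO, and 5.47, 3.99 and 4.54 CPM under NAE at 1 h, against 2.02, 2.47 and 2.15 CPM under DMSO. SCR, a factor gene of the endodermis, had 40.3, 41.0 and 44.2 CPM under NAE at 3 h, against 85.8, 76.5 and 88.5 CPM under DMSO, and 46.1, 50.8 and 54.6 CPM under NAE at 1 h, against 46.3, 50.9 and 50.3 CPM under DMSO. The part of tissue composition in these changes was not tested.

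Of 22 flavonoid and phenylpropanoid genes 12 had fallen at 1 h and 17 at 3 h, and the difference was lower for 13 and higher for none (median -1.33). Their median effect was -2.21 at 3 h and -0.42 at 1 h. FLS1 (AT5G08640), the flavonol synthase gene, had 9.94, 11.4 and 12.4 CPM under NAE at 3 h, against 195, 214 and 176 CPM under DMSO, and 149.7, 150.0 and 131 CPM under NAE at 1 h, against 265, 266 and 234 CPM under DMSO. FLS1 was lower in every NAE library of both times, whereas MYB111, the factor known to activate it, was higher at 1 h. Of 27 glucosinolate and camalexin genes 2 were higher and 16 lower (median -0.93), including the aliphatic glucosinolate factor gene MYB28 (-2.75) and the sulfotransferase gene SOT18 (-1.35). In that list 6 genes had risen at 1 h.

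Sugar starvation and clock genes were spread over several classes. Of 24 sugar starvation genes 14 had risen at 1 h and 15 at 3 h, and the difference was higher for 9 and lower for 5. With library totals 6 were higher and 8 lower, and with reference-gene totals 4 and 8, and the median of 0.18 turned to -0.12 and -0.24. BZIP53, a bZIP factor of low-energy signalling, had 0.95, and the trehalose phosphate synthase homolog TPS5 -2.45. Early only members, named after their values were seen, were DIN10 (0.15 at 3 h and 0.92 at 1 h), BGLU30 (-0.38 and 1.38) and DIN3 (-0.11 and 0.61). BGLU30 is among the loci whose WT DMSO level differed at least 8-fold between the times, with means of 1.51 CPM at 3 h and 0.698 CPM at 1 h in agb1, against 8.89, 8.14 and 11.8 CPM at 3 h and 0.989, 0.515 and 0.766 CPM at 1 h in WT. Of 23 clock genes 3 were higher and 7 lower (median -0.12). With reference-gene totals 1 was higher and 12 lower, and with the exon-length trend removed 6 and 5 (median 0.02). Among the 23 were BOA (0.95), which shares 42.4% of its 75-base words with other loci, and PRR3 (-0.98), both with a called difference. Of 8 nitrogen genes 4 were higher and 1 lower (median 0.52), but 3 and 3 with library totals (median 0.22) and 2 and 3 with reference-gene totals (median 0.09), with the nitrate reductase gene NIA2 at 1.44 and the nitrate transporter gene NRT1.1 at -1.07. Of 16 lipid reserve genes 9 were higher and none lower (median 0.51), but 4 were higher with library totals (median 0.22), and 2 were higher and 2 lower with reference-gene totals (median 0.09). Among the 9 were the beta-oxidation gene ACX2 (1.64) and the peroxisomal citrate synthase gene CSY2 (0.94). Among 7 reference genes UBQ10 had 0.96 and GAPC2 -0.65.

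Among genes of N-acylethanolamine and fatty acid metabolism 2 of 15 were higher and 7 lower (median -0.40), with none higher and 11 lower under reference-gene totals. FAAH itself had 65.8, 59.4 and 55.9 CPM under NAE at 3 h, against 56.6, 58.6 and 66.9 CPM under DMSO, and 64.9, 65.9 and 66.1 CPM under NAE at 1 h, against 60.5, 60.4 and 63.6 CPM under DMSO. Its groups overlapped at 3 h, and its difference of -0.10 (SE 0.12) was not called (95% interval -0.38 to 0.18). The lipoxygenase gene LOX1, with FAAH named after the values were seen, had 95.6, 92.5 and 70.6 CPM under NAE at 3 h, against 371, 375 and 369.7 CPM under DMSO, and 111, 117 and 92.4 CPM under NAE at 1 h, against 148, 159.8 and 192 CPM under DMSO. LOX1 was lower in every NAE library of both times, with a difference of -1.47 (SE 0.18). The plastid desaturase gene FAD5 (-1.59) and the hydroperoxide lyase gene HPL1 (-2.30) were late falls.

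Of 12 genes of the G-protein complex and its partners 8 were higher and 1 lower (median 0.85). With library totals 8 were higher and 2 lower (median 0.55), and with reference-gene totals 6 and 3 (median 0.42). GPA1, the alpha subunit gene, had 295, 294 and 281 CPM under NAE at 3 h, against 104, 83.5 and 106 CPM under DMSO, and 101, 102 and 84.0 CPM under NAE at 1 h, against 80.2, 80.0 and 79.8 CPM under DMSO. GPA1 was a late rise with a difference of 1.31 (SE 0.15), as was AGB1 with 0.95 (SE 0.12). The gamma subunit genes AGG1 and AGG2 had differences of 1.26 and 1.32, and AGG3 -0.38 (95% interval -1.07 to 0.32), which was not called. RGS1, which encodes the regulator that keeps the alpha subunit inactive, had 0.97. The extra-large alpha subunit genes XLG2 and XLG3 had 0.74 and 0.70, and XLG1 -0.17 (95% interval -0.46 to 0.12), which was not called. NDL1, for a partner of AGB1, had 1.90, and NDL2 -1.29. Members of this list other than GPA1, AGB1 and NDL1 were chosen after their values were seen.

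Classes differed in gene structure, which the sorting did not use. Median exon length was 1580 bases in late rises and 2036 in late falls, against 1754 in all tested loci. Loci with a single exon made up 26.6% of strengthened rises, against 16.7% of all tested loci. The higher share was not particular to that class. It was 38.9% in weakened rises (n = 36), 22.0% in rises without a called difference and 21.9% in strengthened falls. Late rises and late falls had 13.5% and 15.7%. Strengthened loci had a median level of 40.6 CPM, against 16.5 CPM in all, and a higher level makes a small effect easier to call. Across loci, exon length had a rank correlation of -0.19 with the difference, 0.35 with the DMSO change between times and 0.14 with the NAE change. With the NAE effect itself the correlation was 0.25 at 1 h and -0.097 at 3 h. With the exon-length trend of each library removed the difference was called for 9561 loci, 5126 higher and 4435 lower. Early only, sustained and reversed loci then numbered 159, 1911 and 147, against 168, 1876 and 143. Among the named loci 18 overlap a gene on the opposite strand, whose reads cannot be told apart without the strand setting of the counting. These are PPCK1, AT3G01260, SRG3, BT5, AT2G36090, ABR1, JAZ10, GPX6, ERDJ3A, ATG8A, CPD, LHCB2.3, PRK, PORC, CHLI2, ATAF2, TPS5 and BOA.

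The agb1 libraries, which took no part in the sorting, are set beside the WT classes. In agb1 58.5% of 21450 tested loci were called at 3 h (27.6% higher and 30.9% lower) and 8.29% at 1 h (5.38% higher and 2.92% lower). The difference was called for 35.7%, with 17.3% higher and 18.4% lower. Of the strengthened WT loci, 915 of 1218 had a difference called in the same direction in agb1, as had 4594 of 7718 late, 100 of 141 reversed and 62 of 166 early only loci. In agb1 the reversed loci that were lower at 3 h in WT had a median effect of -0.79 at 3 h and 0.32 at 1 h. AGB1 transcript averaged 37.5 CPM under NAE at 3 h in agb1, against 29.3 CPM under DMSO, and 45.0 CPM under NAE at 1 h, against 45.3 CPM under DMSO. In WT it averaged 112 ± 9.73 CPM under NAE at 3 h, against 49.9 ± 1.03 CPM under DMSO, and 55.4 ± 1.85 CPM under NAE at 1 h, against 47.7 ± 2.22 CPM under DMSO (SD, n = 3 each). The transcript was thus present in all 4 agb1 groups, and its presence gives no check of the genotype label. Each genotype was scaled on its own. Of 111 named loci with a called difference in WT, 94 had it called the same way in agb1. Tested directly over all 24 libraries, the difference itself differed between genotypes at 298 of 21700 loci (1.37%), among them 20 named ones. A locus with no called genotype difference is not shown to respond alike.

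**Figure D5:**
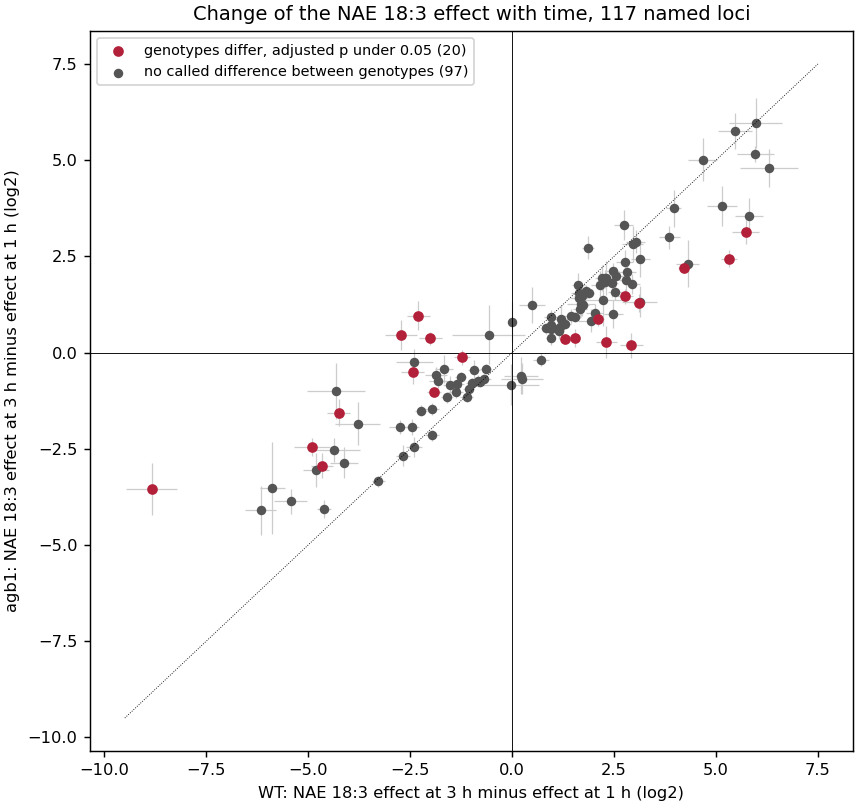
Difference of the NAE effect (3 h minus 1 h, log2) in agb1 on the vertical axis against WT on the horizontal axis for the 117 named loci, with SE as grey lines and equality as the dotted line. The 20 loci with a called genotype difference are red, and AT2G29500 (2.44 in agb1, 5.32 in WT) lies below the dotted line. For AT5G56960 the WT bar (SE 0.077) understates the spread, as its effects had SE of 0.30 at 1 h and 0.27 at 3 h.

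Values of 6 of the 20, picked after their values were seen, follow. In agb1 ARR7 averaged 17.7 CPM under NAE at 3 h, against 11.9 CPM under DMSO, and 13.8 CPM under NAE at 1 h, against 10.6 CPM under DMSO. The difference was 0.18 (SE 0.32) in agb1 and 2.92 (SE 0.28) in WT, which differed by -2.72 (SE 0.47, edgeR adjusted p = 0.00674). HPL1 averaged 1.25 CPM under NAE at 3 h in agb1, against 0.509 CPM under DMSO, and 7.96 CPM under NAE at 1 h, against 6.18 CPM under DMSO. Its difference was 0.96 in agb1 and -2.30 in WT, which differed by 3.28 (SE 0.49, adjusted p = 0.00198). PPCK1 had an early only rise in WT and a difference of 0.46 (SE 0.40) in agb1, 3.19 (SE 0.60, adjusted p = 0.0107) above that in WT. For the heat shock protein genes AT2G29500 and AT5G51440 the difference was 2.44 and 2.18 in agb1, against 5.32 and 4.22 in WT, so that it was called in both genotypes and smaller in agb1. AT2G29500 averaged 1044 CPM under NAE at 3 h in agb1, against 88.6 CPM under DMSO, and its WT means were 1477 ± 206 CPM under NAE and 24.3 ± 1.64 CPM under DMSO (SD, n = 3). AT5G51440 averaged 1145 CPM under NAE at 3 h in agb1, against 111 CPM under DMSO, and its WT means were 1533 ± 118 CPM under NAE and 44.2 ± 1.62 CPM under DMSO. For both genes the DMSO mean at 3 h was higher in agb1 than in WT. The WRKY22 difference was also smaller in agb1, with 1.29 in agb1 and 3.11 in WT. WRKY22 averaged 195 CPM under NAE at 3 h in agb1, against 21.5 CPM under DMSO. Its WT means were 179 ± 14.5 CPM under NAE and 6.01 ± 0.827 CPM under DMSO, so its DMSO mean was also higher in agb1.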

How the data were processed

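Poly(A) RNA of whole seedlings was sequenced as stranded libraries, per the labels' protocols. Reads were aligned with STAR to TAIR10, and DESeq2 was used, per the submitters' processing notes, with versions, the counting tool and its strand setting not given in the sources used here. The deposited tables hold raw counts per locus. Normalized tables were also deposited by the authors (unit signal: raw count divided by a size factor, within a relative tolerance of 1e-08) and served only as a check.

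Counts of the 12 WT libraries were fitted with edgeR 4.0.16 (robust quasi-likelihood F test, R 4.3.3, limma 3.58.1) with 1 mean per group, after filterByExpr (minimum count 10, minimum total 15) and TMM scaling. The call threshold was 0.05 on p adjusted by Benjamini-Hochberg over all tested loci. The 12 agb1 libraries had a fit of their own, and the genotype difference used all 24 libraries. Sustained loci were called at both times with 1 sign, reversed loci at both with opposite signs, and early only and late loci at 1 h or 3 h alone. Early only and late loci, and strengthened or weakened sustained ones, also needed a called difference. CPM values are TMM-scaled. Tables were handled in Python 3.11.15 with pandas 2.3.3, numpy 2.4.6, scipy 1.17.1 and matplotlib 3.10.9. Each SE is the absolute log2 value divided by the square root of the F statistic, and it can understate the spread of very small values. Intervals of a difference used 8 residual degrees of freedom, and intervals of shares and count ratios are exact.

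Named loci were chosen by rule among loci with a mean of at least 5 CPM whose 3 NAE and 3 DMSO libraries did not overlap at the times of the call. These were the 3 with the largest difference per class and direction, 5 for reversed loci, and for sustained loci without a called difference the 3 with the largest smaller effect. From each list with 3 or more called members the 2 with the smallest p were added, and AGB1 and GPA1 always, 117 loci in all. The members and lists were chosen with earlier results of these data known. All 819 entries of 43 lists were found in the tables. RefSeq's TAIR10.1 annotation matched 32548 loci and left 285 unmatched, and 49 list entries carry a symbol that it lacks.

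On simulated counts with known changes in 200 of 20671 loci, the fit of the WT difference recovered 14.9% of 67 loci changed 1.5-fold, 59.7% of 67 changed 2-fold and 93.9% of 66 changed 4-fold, with 3 calls among 20471 unchanged loci. In the data 9568 of 20893 loci were called, which changes the Benjamini-Hochberg cut-off, so these shares are not recovery rates for the data. All other simulated loci had the same NAE effect at both times, so the dependence on scaling was not tested. Other scalings, filters, thresholds, DESeq2 1.42.0, a replicate block and leaving out each library were tried as alternatives. Leaving out overlapping or repeated loci, and loci with an 8-fold DMSO difference between times, was added after seeing the data.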

Additional observations from a re-analysis of the deposited data

Results flagged for a closer look

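In WT 9568 loci had a different NAE effect at 3 h than at 1 h, by edgeR's test of the difference itself, and the change of the effect with time differed between agb1 and WT at 298 loci.

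Named loci with a called effect of opposite sign at the 2 times were, in the lower direction at 3 h, AT1G60590 with a difference of -8.84 on the log2 scale, AT5G20790 with -6.17, MGDC with -5.88, AT1G75960 with -4.67, MYB111 with -4.13 and GLK2 with -2.41. In the higher direction at 3 h these were HSP22.0 with 5.81, APX2 with 4.30, GSTU25 with 2.96, ARR7 with 2.92 and AT1G29195 with 2.31.

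Named loci whose change with time differed between the genotypes are given as agb1 minus WT on the log2 scale. The value was positive for AT1G60590 (5.34), HPL1 (3.28), PPCK1 (3.19), AT2G10940 (2.71), AT4G38840 (2.50), AT2G20670 (2.40), SRG3 (1.94), AT1G75960 (1.75), TMM (1.12) and GLK1 (0.92). It was negative for AT2G29500 (-2.86), ARR7 (-2.72), HSP23.6 (-2.58), AT5G51440 (-2.01), AT1G29195 (-2.01), WRKY22 (-1.80), SAG21 (-1.30), BZIP60 (-1.22), BIK1 (-1.14) and GPA1 (-0.94). At each locus of the first set but none of the second the WT difference was below 0. The loci were named by their WT values, and the genotype difference uses the same WT libraries.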

How the results depend on the processing

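Of 111 named loci with a called difference, all 1332 values with 1 library left out kept the call, and of 1533 values under other settings 3 lost it, those of AMT1;2 and AT5G26290 given above. Of the 6 named loci without one, the difference changed sign with a library left out for 5: AT5G56960 (-0.39 to 0.22), NHL10 (-0.11 to 0.47), AT3G61400 (-0.67 to 0.45), UF3GT (-1.38 to 0.04) and AT1G05700 (-0.17 to 0.58). RLE scaling, both other filters, DESeq2, removal of the exon-length trend and leaving out organelle loci or loci with an 8-fold DMSO difference between times moved the count of called differences to between 9188 and 10023, from 9568. Leaving out overlapping and repeated loci gave 7122.

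Counts that moved by over 1.5 times were as follows. Library totals gave 3090 higher and 6926 lower differences, and reference-gene totals 2362 and 7930. With all 24 libraries in the fit 315 loci were early only. At an adjusted p under 0.01, 1421 loci were called at 1 h, 96 were early only, 1175 sustained and 52 reversed, and at 0.10, 256 were early only and 255 reversed. When each call also needed a log2 change of 1, the difference was called for 4505 loci (2304 higher and 2201 lower). The 1 h effect was then called for 834 and the 3 h effect for 5854, with 98 early only, 616 sustained, 3691 late and 27 reversed. With each time fitted on its own 6 libraries 3577 loci were called at 1 h. The causes were not tested.

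With 1 library left out, called differences ranged from 8286 to 9529 (4456 to 5048 higher, 3830 to 4528 lower), 1 h calls from 1492 to 2743 and 3 h calls from 11823 to 12754. Early only loci ranged from 102 to 212, sustained from 1249 to 2125, late from 6880 to 7634 and reversed from 81 to 178. With 1 agb1 library left out, 48 to 75 early only, 831 to 1021 strengthened, 3933 to 5185 late and 88 to 106 reversed WT loci had a difference called the same way in agb1.

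Same-numbered libraries of NAE and DMSO at the same time deviated from their group means with correlations of -0.14 to 0.16. For different-numbered ones these were -0.18 to 0.11. With 3 libraries a group, such correlations cannot show whether the numbers pair the samples. With the replicate number as a block within each time 8850 differences, 1920 loci at 1 h and 12349 at 3 h were called. With a block shared by both times these were 9025, 2041 and 12452, and no named call changed under either block. The W-box share of early only rises was 24.3% in the 100 bases before the start, against 13.6% of tested loci. On simulated counts with 3 libraries a group and far fewer changed loci than were called in the data, 14.9% of loci changed 1.5-fold were recovered.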
